A study of Homo sapiens with 24 samples.

Results

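The 7 genes described here are FOS, FOSL1 and FOSL2 of the Fos family, JUN, JUNB and JUND of the Jun family, and ATF3, out of 38849 genes in the deposited table. They were taken by symbol, with their values in all 24 libraries. The cells were HMLE, an immortalized human mammary epithelial line. They expressed either LacZ, a bacterial enzyme gene used for the control line, or RBMS3, which codes for an RNA-binding protein. Both lines were given 10 µg/mL actinomycin D, which blocks transcription, for 0, 90, 180 or 360 min, in triplicate libraries (n = 3 in each of 8 groups). The medium of every group held epidermal growth factor, insulin, hydrocortisone and serum. No vehicle-treated or untreated time course is among the samples. According to the design text, the study asked which genes have an mRNA stability controlled by RBMS3. Whether replicate libraries stem from separate cultures is not given in the labels, and the p-values therefore rest on a spread that may be only technical.

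AP-1 is a dimeric transcription factor made of a Jun protein with a Fos, Jun or ATF protein, joined through leucine zippers. Several of its genes are immediate early genes: growth factors and stress switch them on within minutes, and their mRNAs are among the most short-lived in the cell. AU-rich elements in the 3' untranslated region (UTR), built from the pentamer AUUUA, are a known site at which proteins of the ZFP36 family start the decay of such mRNAs. FOSL1 and FOSL2 code for Fos proteins that lack a strong transactivation domain, and FOSL1 is known for its high level in mesenchymal and invasive breast cells.

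The AU-rich site of each 3' UTR is shown because the share of the members in a library fell by very different amounts in both lines. Each line below gives up to 30 bases around the densest group of pentamers, 5′ to 3′ on the coding strand and written as DNA, with ATTTA in capitals and overlapping pentamers joined. Where no such stretch held several pentamers, as in JUN and JUNB, the first copy is shown. Sequences and positions are those of GENCODE release 29 on GRCh38, for the transcript with the most reads. All lie in an exon, within the 3' UTR. The positions are, in the same order, chr14:75282057-75282086 (plus strand), chr11:65892272-65892301 (minus), chr2:28416348-28416377 (plus), chr1:58781336-58781365 (minus), chr19:12793059-12793088 (plus) and chr19:18279998-18280027 (minus).
FOS: ttgtgtttttaATTTATTTAttaagatgga
FOSL1: gagggcagctgctATTTAttttcctaaaga
FOSL2: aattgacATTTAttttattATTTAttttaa
JUN: ttccagaaaggatATTTAagaaaatacaat
JUNB: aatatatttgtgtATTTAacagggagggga
JUND: tcgattctgccctATTTAtgtttctactcg

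FOS held 5 pentamers in a 3' UTR of 806 bases, and FOSL2 held 9 in 4864 bases. JUN had 3 in 1287 bases and JUNB 2 in 500 bases. FOSL1 and JUND held 1 pentamer each, in 837 and 681 bases. The ATF3 transcript with the most reads had a 3' UTR of 161 bases and no pentamer, so no site is shown for it. The longer nonamer TTATTTATT, which contains the pentamer, occurred once in FOS and once in FOSL2 and in none of the other 5 members. Among 11095 tested genes with an annotated 3' UTR (median length 1148 bases), 71.3% held the pentamer, with a median of 2 copies, and 8.96% held the nonamer. ATATA, a pentamer of the AU-rich kind that RBMS proteins bind, was found 5 times in FOSL2, 4 times in JUN and 2 times in JUNB, and not in FOS, FOSL1, JUND or ATF3, against 59.8% of genes with at least 1 copy. Each motif was searched on the transcript strand only, overlapping copies were counted separately, and a match is a run of letters, not a measured site.

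**Figure D1:**
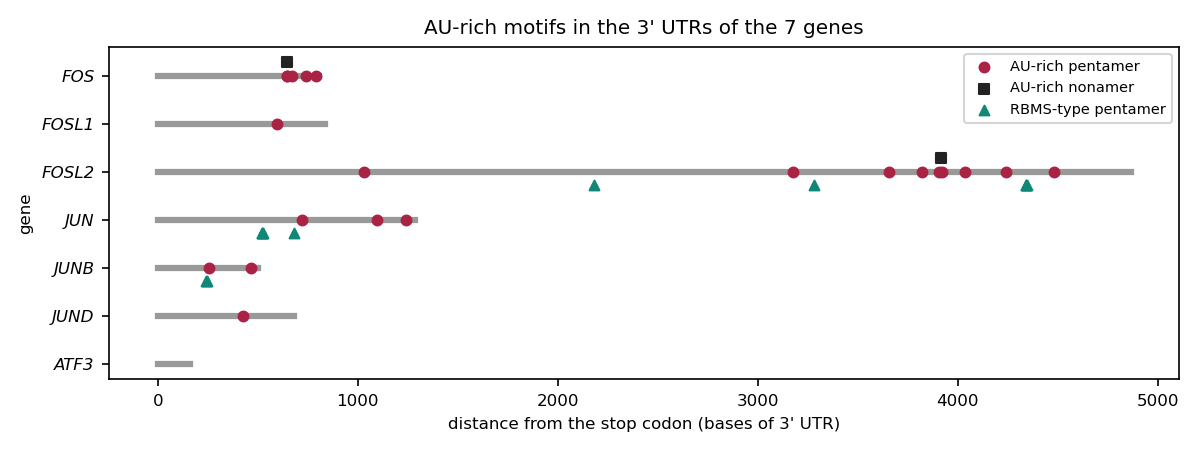
Positions of 3 AU-rich motifs along the 3' UTR of each gene, with distance from the stop codon in bases on the x axis and 1 gene per row (grey bar: UTR). The AU-rich pentamer is ATTTA, the AU-rich nonamer TTATTTATT (in DNA letters) and the RBMS-type pentamer ATATA; FOS has 5 AU-rich pentamers in 806 bases and ATF3 has none in 161.

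The normalized counts of a library summed to 6638187 to 8080428, with 14193 to 15697 genes above 0. The 12 libraries with a usable read file held 4426445 to 9856338 estimated reads, and a normalized count of 2.17 to 5.11 stood for 3 reads. The RBMS3 transcript itself was 75.7, 101 and 116 in LacZ cells and 358, 254 and 203 in the RBMS3 line at 0 min (limma difference 1.45 ± 0.39 SE on the log2 scale, adjusted p = 0.00608). The epithelial label of the cells held for most markers of the control line but not for all of the RBMS3 line. EPCAM, an epithelial adhesion molecule, was 1716 ± 30.3 (SD, n = 3) in LacZ cells and 0.707 ± 1.22 in the RBMS3 line at 0 min. CDH1, KRT8 and KRT18 were also called lower in RBMS3 cells, with CDH1 at 319 ± 151 against 7.90 ± 7.58. KRT14 was called higher, and KRT5 and KRT17 were not called (limma adjusted p = 0.846 and 0.531). KRT19 was near 0 in both lines, with a mean of 0.341 in LacZ cells at 0 min and 0 in every RBMS3 library. The summed level of 8 epithelial markers was 14835 to 16628 in LacZ and 13597 to 13911 in RBMS3 libraries at 0 min, and 5 of the 8 had a mean of at least 10 in RBMS3 cells against 7 of 8 in LacZ cells. The sum in RBMS3 cells was 3677 to 4255 at 90 min, and KRT14, a basal keratin of that list, was 6059 ± 140 at 0 min and 791 ± 83.2 at 90 min, where LacZ cells held 2555 ± 465 and 2517 ± 139. The lines also differed in mesenchymal markers: the sum of 6 was 7440 to 8200 in LacZ and 47446 to 50385 in RBMS3 libraries at 0 min, and all 6 were called higher in RBMS3 cells. Among them VIM, an intermediate filament protein, was 3794 ± 534 against 14468 ± 175, and ZEB1, a repressor of epithelial genes, was 17.2 ± 2.96 against 412 ± 10.2. The lines compared below thus differ in these markers, whose part in the results was not tested. Of 4 leukocyte, 3 endothelial and 2 adipocyte markers, CD3E, CDH5 and PLIN1 were at 0 in every library, and the sums were at most 55.9, 6.2 and 1.1. The leukocyte sum was mostly CD68, with group means of 26.2 to 38.0 in LacZ cells. In LacZ cells at 0 min, replicate 2 stood apart, with a lowest correlation to its group of 0.909 across genes. It also held lower JUNB, and it is named beside JUNB and ZFP36L2 results that it moves. In RBMS3 cells KRT5, KRT17, FN1 and TWIST1 were also called lower at 90 than at 0 min, and VIM and CDH2 higher. KRT17 was 2993 ± 82.3 at 0 min and 668 ± 19.6 at 90 min in RBMS3 cells, and 2876 ± 294 and 3112 ± 84.7 in LacZ cells. FN1 at the same times was 30642 ± 1295 and 14879 ± 91.3 in RBMS3 cells, and 3097 ± 960 and 3015 ± 102 in LacZ cells. Every change from 0 min in RBMS3 cells rests on the RBMS3 libraries of 0 min, whereas the differences between the lines at 90, 180 and 360 min do not use them. The part of these differences in the results below was not tested.

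All values are shares of a library. The RNA in a cell was not measured, and in bulk samples fewer cells and less RNA per cell cannot be told apart. Values are normalized counts of replicates 1, 2 and 3, and a log2 difference is a difference in log2(normalized count + 1) with its standard error (SE). A gene was called where the limma adjusted p, over 12096 genes with a mean of at least 10, was under 0.05. The 6 members other than FOS passed that filter, and FOS did not, with a mean of 7.58.

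**Figure D2:**
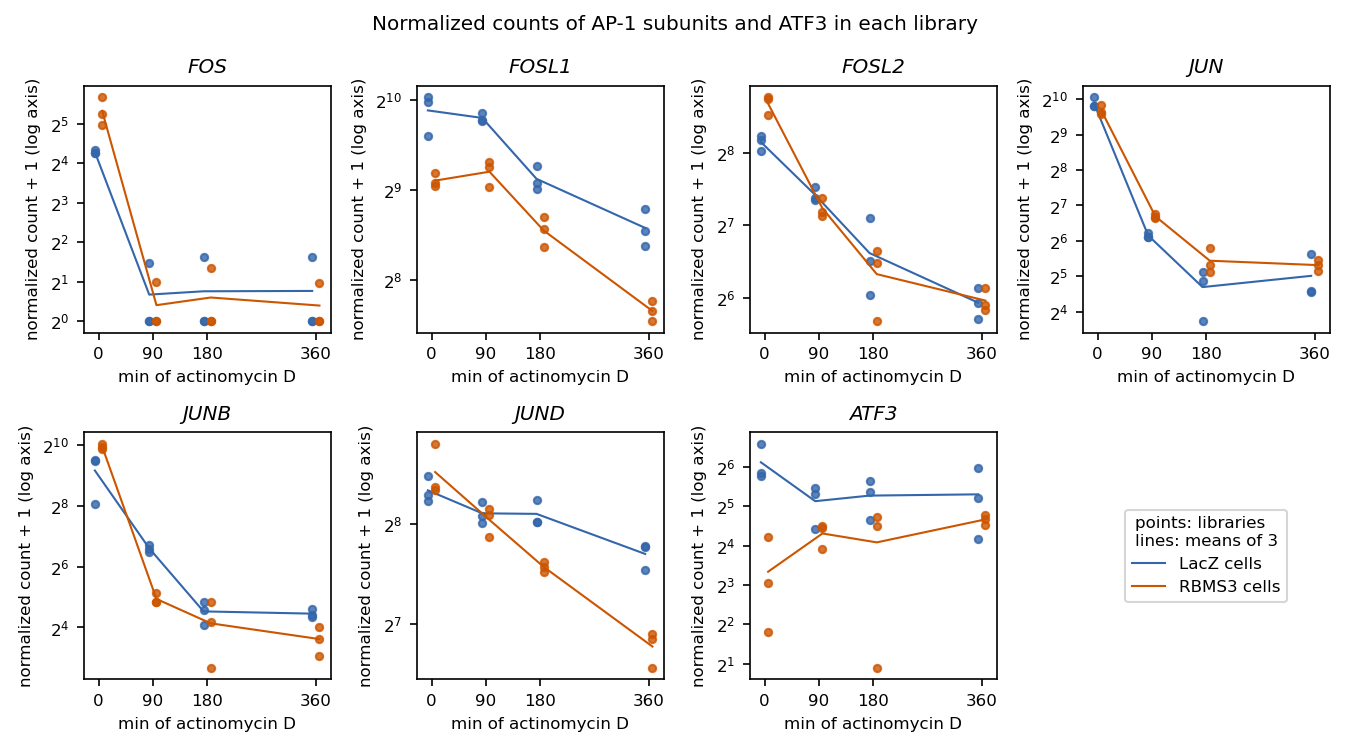
Normalized count + 1 (log axis) of each gene against min of actinomycin D, with a point for each library and lines through the means of the 3 libraries of a group. JUN, JUNB and FOS drop steeply by 90 min in both lines, FOSL1 does not drop before 180 min, and JUND ends at 93.9 to 118 in RBMS3 cells against 185 to 218 in LacZ cells.

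FOS, the classical immediate early gene and the partner of JUN in the best known AP-1 dimer, was detected before actinomycin D and was at or below 2.115 in every later library. At 0 min it was 18.2, 19.1 and 18.1 in LacZ cells and 30.04, 49.8 and 37.2 in RBMS3 cells. The lines did not overlap, and the RBMS3 libraries were the higher ones. After 90 min FOS was 0, 0 and 1.80 in LacZ cells and 0, 0 and 0.986 in RBMS3 cells. At 180 min they were 0, 0 and 2.08 against 0, 1.56 and 0, and at 360 min 0, 0 and 2.11 against 0, 0.958 and 0. Every later value lay under what 3 reads stand for, so no fold is given and a difference between the lines after 0 min was not detectable at this depth. Without a filter, over 21199 genes, the log2 difference between 90 and 0 min was −3.79 ± 0.61 in LacZ cells (limma adjusted p = 0.00089) and −4.96 ± 0.61 in the RBMS3 line (limma adjusted p = 1.59e-05). In that fit 1.64% of genes were called lower in LacZ cells and 3.95% in RBMS3 cells. The higher level in the RBMS3 line at 0 min did not pass (log2 difference 1.01 ± 0.61, limma adjusted p = 0.276).

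FOSL1, which codes for FRA-1, was lower in RBMS3 than in LacZ cells at every time, without overlap. At 0 min it was 1007, 776 and 1043 in LacZ cells and 537, 525 and 582 in RBMS3 cells. The RBMS3 mean was 1.72-fold lower (log2 difference −0.77 ± 0.13, limma adjusted p = 7.59e-05). FOSL1 levels after 90 min were 923, 876 and 867 against 609, 630.4 and 521 (log2 difference −0.60, limma adjusted p = 0.00122). No change from 0 to 90 min was called: it was −0.07 in LacZ cells (limma adjusted p = 0.809) and 0.10 in the RBMS3 line (limma adjusted p = 0.686).

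FOSL1 then fell in both lines. At 180 min the libraries held 536, 515 and 615 in LacZ cells and 376, 414 and 328 in RBMS3 cells, a log2 difference of −0.58 (limma adjusted p = 0.00161). At 360 min they held 331, 370.0 and 440 in LacZ cells and 200.1, 216 and 185 in RBMS3 cells, a log2 difference of −0.92 (limma adjusted p = 1.1e-05). The RBMS3 libraries were again all below the LacZ libraries. From 90 to 360 min the mean decreased 2.34-fold in LacZ cells (log2 change −1.23, limma adjusted p = 2.58e-06) and 2.93-fold in the RBMS3 line (log2 change −1.55, limma adjusted p = 1.22e-07). The change from 0 to 360 min differed between the lines by −0.15, with a 95% interval of −0.53 to 0.24 (limma adjusted p = 0.714). FOSL1 has several transcripts, and the ratio of table value to reads varied 1.2-fold over the 12 libraries with reads.

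FOSL2, which codes for FRA-2, fell in both lines to about the same final level. It was 301, 261 and 288 in LacZ cells and 427, 436 and 365 in the RBMS3 line at 0 min, all RBMS3 libraries being higher. That difference, 0.53 ± 0.24 on the log2 scale, did not pass (limma adjusted p = 0.0953). After 90 min it was 183, 166 and 162 in LacZ cells against 139, 165 and 145 in RBMS3 cells, and the lines overlapped. The decrease from 0 to 90 min was 2.74-fold and called in the RBMS3 line (log2 change −1.45, limma adjusted p = 0.000304). In LacZ cells the log2 change was −0.73 (limma adjusted p = 0.0765), and −0.94 and called with ribosomal protein scaling (limma adjusted p = 0.0198). The difference between these changes was −0.71, with a 95% interval of −1.43 to −0.00023 (limma adjusted p = 0.275). At 180 min the levels were 65.0, 89.9 and 137 against 99.0, 88.6 and 50.03, with full overlap. At 360 min they were 51.1, 59.6 and 69.4 in LacZ cells and 55.9, 69.2 and 58.7 in RBMS3 cells. The whole decrease to 360 min was 4.72-fold in LacZ cells (log2 change −2.23, limma adjusted p = 7.74e-07) and 6.68-fold in the RBMS3 line (log2 change −2.72, limma adjusted p = 2.68e-08).

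JUN, the founding Jun protein, lost most of its mRNA in the first 90 min in both lines. At 0 min it was 885, 902 and 1061 in LacZ cells and 910.1, 797 and 763 in RBMS3 cells, with overlap (log2 difference −0.21, limma adjusted p = 0.642). By 90 min JUN had dropped to 68.7, 74.1 and 67.7 in LacZ cells and 98.3, 107 and 102 in RBMS3 cells. The RBMS3 libraries were then all higher, but the log2 difference of 0.54 did not pass (limma adjusted p = 0.201). The decrease over 90 min was 13.5-fold in LacZ cells (log2 change −3.74 ± 0.30, limma adjusted p = 8.69e-08) and 8.04-fold in the RBMS3 line (log2 change −2.99 ± 0.30, limma adjusted p = 7.25e-07). These changes differed by 0.74, with a 95% interval of −0.15 to 1.64 (limma adjusted p = 0.393). In LacZ cells 21 of the 12096 tested genes had a more negative change than JUN over 90 min.

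Later losses of JUN were smaller. At 180 min the levels were 28.5, 12.3 and 34.2 in LacZ cells and 33.8, 39.2 and 54.6 in RBMS3 cells. The lines overlapped by a small margin, and the log2 difference of 0.83 was called (limma adjusted p = 0.0401). Without LacZ replicate 2 at that time it was 0.41 and not called (limma adjusted p = 0.287). It was also lost without RBMS3 replicate 2 or 3 at that time, at 0.87 and 0.64 (limma adjusted p = 0.0661 and 0.17), and with no filter, ribosomal protein scaling or only the groups compared in the fit (limma adjusted p = 0.0618, 0.0685 and 0.217). At 360 min the libraries held 22.5, 23.1 and 48.5 against 38.9, 34.6 and 43.3, with overlap. Over 360 min JUN decreased 30.3-fold in LacZ cells (log2 change −4.96, limma adjusted p = 1.98e-10) and 21.2-fold in the RBMS3 line (log2 change −4.37, limma adjusted p = 7.99e-10). Between 90 and 360 min the log2 change was −1.23 in LacZ cells (limma adjusted p = 0.0131) and −1.38 in the RBMS3 line (limma adjusted p = 0.00315). The LacZ call was lost without replicate 1 or 2 at 360 min (limma adjusted p = 0.0729 and 0.0716).

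JUNB, a Jun protein that often opposes JUN on its targets, was the member whose early loss differed between the lines. At 0 min it was 730.1, 263 and 714 in LacZ cells and 935, 971 and 1048 in RBMS3 cells. All RBMS3 libraries were higher, and LacZ replicate 2 was far below the other two LacZ libraries. The log2 difference of 0.93 ± 0.43 did not pass (limma adjusted p = 0.0969). It ranged from 0.45 to 1.18 with each library left out in turn, the lowest being without LacZ replicate 2. The order was the opposite at 90 min: LacZ cells held 95.4, 104 and 88.4, and RBMS3 cells 27.4, 33.9 and 27.5, without overlap. The RBMS3 mean was then 3.24-fold lower (log2 difference −1.67 ± 0.43, limma adjusted p = 0.00521).

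Over the first 90 min JUNB decreased 5.93-fold in LacZ cells (log2 change −2.42 ± 0.43, limma adjusted p = 0.00144) and 33.3-fold in the RBMS3 line (log2 change −5.01 ± 0.43, limma adjusted p = 6.44e-08). With only the groups compared in the fit, the LacZ change did not pass (limma adjusted p = 0.0609). Without LacZ replicate 2 at 0 min the LacZ change was −2.90. The difference between the changes in the 2 lines was −2.60 ± 0.61 (limma adjusted p = 0.0131). Without LacZ replicate 2 at 0 min it was −2.11 (limma adjusted p = 0.0293), and over all 12 libraries left out in turn it ranged from −2.85 to −2.11. Of the 12096 tested genes, 10 had a more negative change than JUNB over 90 min in RBMS3 cells. KRT14, KRT5, KRT17 and FN1 were also lower at 90 than at 0 min in RBMS3 cells, as given above, and their part in this difference was not tested.

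At 180 min JUNB was 22.8, 27.4 and 15.9 in LacZ cells and 5.37, 17.03 and 27.3 in RBMS3 cells, with overlap. At 360 min it was 19.4, 20.2 and 23.1 against 15.2, 7.33 and 11.3, the RBMS3 libraries being lower without overlap (log2 difference −0.88, limma adjusted p = 0.12). From 90 to 360 min it decreased 4.59-fold in LacZ cells (log2 change −2.15, limma adjusted p = 0.00259). The RBMS3 change of −1.36 was called (limma adjusted p = 0.0339) but did not pass in edgeR (−1.43, adjusted p = 0.0794), in DESeq2 (−1.43, adjusted p = 0.0821), which called 12.7% and 11.1% of genes lower, or without any 1 of 5 of the 6 libraries (limma adjusted p from 0.067 to 0.147). Nor did it pass with a pseudocount of 10, no filter or only the groups compared in the fit (limma adjusted p = 0.0582, 0.0581 and 0.0554). Over 360 min the log2 change was −4.56 in LacZ cells (limma adjusted p = 1.03e-07) and −6.38 in the RBMS3 line (limma adjusted p = 5.05e-10). These changes differed by −1.81, with a 95% interval of −3.08 to −0.55 (limma adjusted p = 0.0731). That difference ranged from −2.06 to −1.33 with each library left out in turn, −1.33 being without LacZ replicate 2 at 0 min.

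JUND, the Jun protein present in most resting cells, was the slowest Jun mRNA to fall and fell further in RBMS3 cells. It was 298, 353 and 310.3 in LacZ cells and 442, 321 and 329 in the RBMS3 line at 0 min, with overlap (log2 difference 0.17, limma adjusted p = 0.385). At 90 min the levels were 268, 296 and 256 against 269.7, 282 and 233, again overlapping. At 180 min it was 301, 258 and 258 in LacZ cells, overlapping the 90 min libraries, and 189, 182 and 196 in RBMS3 cells. Here the lines came apart, with a log2 difference of −0.52 (limma adjusted p = 0.00724).

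At 360 min JUND was 218, 217 and 185 in LacZ cells and 93.9, 118 and 114 in RBMS3 cells, without overlap. The RBMS3 mean was 1.90-fold lower (log2 difference −0.92 ± 0.14, limma adjusted p = 3.21e-05). Over 360 min it decreased 1.55-fold in LacZ cells (log2 change −0.63, limma adjusted p = 0.00222) and 3.34-fold in the RBMS3 line (log2 change −1.72, limma adjusted p = 9.78e-09). The difference between the changes was −1.09 ± 0.20 (limma adjusted p = 0.00165), and from −1.17 to −0.94 with each library left out in turn. The part of it after 90 min was −0.85 and did not pass (limma adjusted p = 0.27). In RBMS3 cells the change over the first 90 min, −0.46, was called (limma adjusted p = 0.0328). That call was lost without RBMS3 replicate 1 at 0 min (−0.32, limma adjusted p = 0.191) and without replicate 1 or 3 at 90 min (limma adjusted p = 0.0647 and 0.133).

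ATF3, a stress-induced partner of Jun proteins, was lower in RBMS3 cells before actinomycin D. At 0 min it was 56.8, 94.97 and 52.9 in LacZ cells and 7.25, 2.49 and 17.6 in RBMS3 cells, without overlap. The RBMS3 mean was 7.49-fold lower (log2 difference −3.04 ± 0.76, limma adjusted p = 0.0031). RBMS3 replicate 2 lay under the 2.83 that 3 reads stood for in that library, so the size of the fold is uncertain. With each library left out in turn the log2 difference was −3.64 to −2.43. At 90 min the levels were 38.7, 42.7 and 20.4 in LacZ cells and 14.1, 21.5 and 20.7 in RBMS3 cells, with overlap. At 180 min they were 48.7, 24.1 and 39.8 against 0.862, 25.5 and 21.4, and at 360 min 62.1, 16.9 and 36.2 against 26.4, 24.7 and 21.96. The lines overlapped at both times, and no difference between them was called after 0 min. At 180 min the log2 difference was −1.84 ± 0.76 (limma adjusted p = 0.0676), and it was called without RBMS3 replicate 2 (−2.52, limma adjusted p = 0.0221) or 3 (−2.40, limma adjusted p = 0.0339) but −0.60 and not called without replicate 1.

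In neither line was a change of ATF3 over time called with all libraries. The LacZ log2 change from 0 to 360 min was −0.94 (limma adjusted p = 0.385) and the RBMS3 change was 1.64 ± 0.76 (limma adjusted p = 0.0956). Without RBMS3 replicate 3 at 0 min the latter was 2.24 and called (limma adjusted p = 0.0404), and without replicate 2 it was 1.03. These differed by 2.58, with a 95% interval of 0.36 to 4.81 (limma adjusted p = 0.158). ATF3 is the least certain of the tested members: its reads fell on 5 transcripts, with 50.1% on the most abundant, and the ratio of table value to reads varied 2.3-fold over 11 libraries. For JUN, JUNB, JUND and FOSL2 that ratio varied 1.001-fold, since each had reads on 1 transcript.

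**Figure D3:**
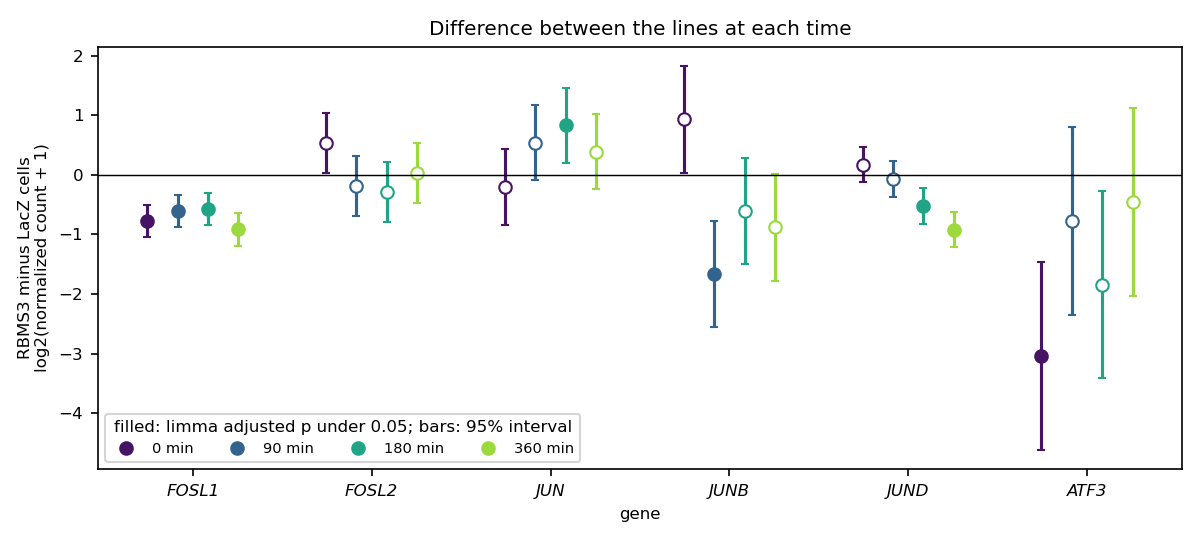
Difference between the lines, RBMS3 minus LacZ cells in log2(normalized count + 1), for each tested gene at 4 times (colours), with 95% intervals and filled points where the limma adjusted p was under 0.05. FOSL1 lies below 0 at all 4 times, JUNB is below 0 and called at 90 min, and JUND is called at 180 and 360 min.

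Counted together, 2 or 3 of the tested members were called between the lines at each time. At 0 min 2 of 6 tested members were called lower in RBMS3 cells (FOSL1 and ATF3) and 0 higher, against 18.9% of all tested genes called lower and 18.6% higher. At 90 min the count was 2 lower (FOSL1 and JUNB), where 15% of all genes were lower. At 180 min FOSL1 and JUND were lower and JUN higher, against a background of 16.8% lower and 16.2% higher. At 360 min 2 were lower (FOSL1 and JUND), where 17.7% of all genes were. With 6 genes, these counts do not set the members apart from the rest.

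Over 360 min of actinomycin D most of the tested members were called lower in both lines. The members were chosen with earlier results of these data known, so the counts are only a description. In LacZ cells 2 of 6 were called lower at 90 min (JUN and JUNB), where 2.74% of all tested genes were, and 5 of 6 at 360 min, where 13.6% were. In RBMS3 cells 4 of 6 were lower at 90 min against 6.52% of all genes, and 5 of 6 at 360 min against 18.6%. ATF3 was the exception in both lines at 360 min. From 90 to 360 min 4 of 6 were lower in LacZ cells (all but JUND and ATF3) against 5.12% of genes, and 5 of 6 in RBMS3 cells against 8.35%. The RBMS3 count includes JUNB, whose call was lost in the settings given above. With ribosomal protein scaling JUND was also called in LacZ cells (log2 change −0.73, limma adjusted p = 0.00176).

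The median log2 change of the 6 members at 90 min was −0.87 in LacZ cells, beside 0.0022 for all tested genes, and −0.95 in RBMS3 cells, beside −0.0076. At 360 min it was −1.77 beside 0.029 in LacZ cells and −2.22 beside −0.0060 in RBMS3 cells. The change itself differed between the lines for 1 of 6 members at 90 min (JUNB, lower, with 2.52% of genes) and 1 of 6 at 360 min (JUND, lower, with 3.46% of genes). For the change from 90 to 360 min the difference was called for 0 members in limma (1 of them, JUND, had an unadjusted p under 0.05), and 0.00827% of all genes were called. Scaled to ribosomal protein genes, the median of all genes shifted by more than 0.1 in several comparisons, for instance to −0.49 for LacZ cells at 360 min and −0.40 for RBMS3 cells. The calls then split into 140 higher and 4580 lower genes in LacZ cells and 760 higher and 3891 lower in RBMS3 cells.

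**Figure D4:**
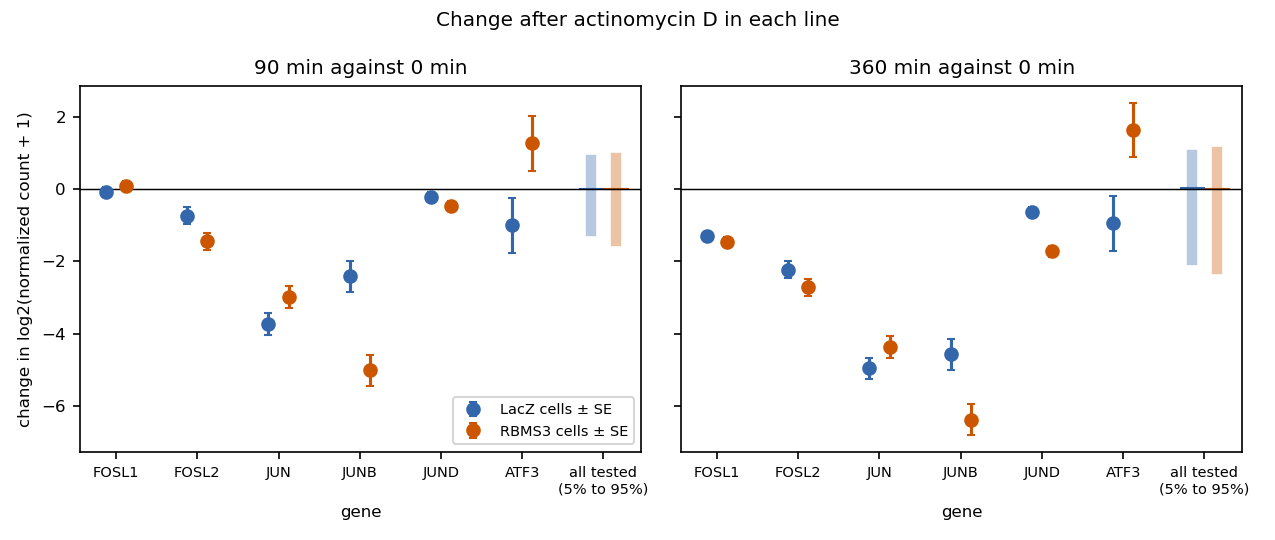
Change in log2(normalized count + 1) from 0 to 90 min (left) and to 360 min (right) in each line, with SE; the thick bars at the right of each panel span the 5th to 95th percentile of all tested genes. JUN and JUNB lie below that range in both lines, FOSL1 lies within it at both times, and ATF3 is the only member above 0 in RBMS3 cells at 360 min.

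Set beside the losses, the density of the pentamer ATTTA was 6.2 per kb of 3' UTR in FOS, 4.0 in JUNB, 2.33 in JUN, 1.85 in FOSL2, 1.47 in JUND, 1.19 in FOSL1 and 0 in ATF3. Each density is that of the transcript with the most reads, and other transcripts were not searched. That transcript held only 50.1% of the ATF3 reads and 69.7% of the FOSL1 reads. In RBMS3 cells the 6 tested members had the same order by their change over 360 min, from JUNB, which fell furthest, to ATF3. In LacZ cells the order was JUN, JUNB, FOSL2, FOSL1, ATF3 and JUND, which is not that of the density. Ordered by copies instead, FOSL2 with 9 came first, before JUN with 3 and JUNB with 2. FOSL1 and JUND with 1 each and ATF3 with 0 came last. That is the order of the change in neither line. The nonamer was present in FOS, which was near 0 by 90 min, and in FOSL2, which had a log2 change of −0.73 in LacZ and −1.45 in RBMS3 cells by then, and absent from JUN and JUNB, with changes of −2.42 or below. With so few genes these orders are a description, and whether the motifs bear on the losses was not tested. Among all genes with a 3' UTR, the median log2 change over 360 min in LacZ cells was −0.12 for 994 genes with the nonamer and 0.049 for 10101 without it. In RBMS3 cells the same medians were −0.25 and 0.016. These medians are a description across genes and were not tested.

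Other genes of the pathway were read from 4 lists. The first holds 18 further dimer partners of the bZIP family, of which 13 were tested. At 0 min 1 was higher and 3 were lower in RBMS3 cells, where 18.6% and 18.9% of all tested genes were. At 360 min 2 were higher and 5 lower, beside 17.5% and 17.7% of all genes, with a median log2 difference of −0.39 beside −0.015 for all genes. JDP2, a repressor that binds Jun proteins, was 51.1 ± 11.1 (SD, n = 3) in LacZ cells and 156 ± 33.1 in the RBMS3 line at 0 min (log2 difference 1.60, limma adjusted p = 0.000742). MAFK, a small Maf protein, was 418 ± 17.1 against 109 ± 10.3 (log2 difference −1.94, limma adjusted p = 7.13e-07). CEBPB, an inflammatory bZIP factor, fell over 360 min, with a log2 change of −3.42 in LacZ cells and −4.02 in the RBMS3 line (limma adjusted p = 5.96e-08 and 3.32e-09). FOSB, the remaining Fos gene, did not pass the filter and was 9.64 ± 5.24 in LacZ cells and 37.1 ± 12.6 in the RBMS3 line at 0 min.

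The second list holds 22 kinases, transcription factors and other regulators upstream of AP-1, all tested. At 0 min 4 were higher and 6 lower in RBMS3 cells, beside 18.6% and 18.9% of all tested genes, and at 360 min 2 were higher and 8 lower, beside 17.5% and 17.7%. EGFR, the receptor for the growth factor in the medium, was 1524 ± 82.1 in LacZ cells and 782 ± 78.9 in the RBMS3 line at 0 min (log2 difference −0.97, limma adjusted p = 3.68e-08). Its share then rose in RBMS3 cells to 1448 ± 150 at 360 min, and the change over 360 min differed between the lines by 0.68 (limma adjusted p = 0.00214). Most of the RBMS3 rise came by 90 min, with a log2 change of 0.73 by then and 0.89 by 360 min (limma adjusted p = 1.07e-05 and 2.04e-07). Both changes rest on the RBMS3 libraries of 0 min. RPS6KA1, a kinase downstream of ERK, was 311 ± 35.5 against 104 ± 11.4 at 0 min (log2 difference −1.57, limma adjusted p = 4.45e-08).

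The third list holds 26 genes known as AP-1 targets, of which 25 were in the table and 18 tested. At 0 min 5 were higher and 10 lower in RBMS3 cells, where 18.6% and 18.9% of all tested genes were, with a median log2 difference of −1.16 beside 0.0065 for all genes. At 360 min 6 were higher and 10 lower, beside 17.5% and 17.7% of all genes, with a median of −1.40 beside −0.015. MMP9, a gelatinase, was 229 ± 40.0 in LacZ cells and 2.47 ± 2.71 in the RBMS3 line at 0 min (log2 difference −6.40, limma adjusted p = 1.72e-07). HBEGF, a ligand of EGFR, was 1387 ± 193 against 114 ± 6.93 (log2 difference −3.58, limma adjusted p = 2.2e-13). In the other direction, TIMP1, an inhibitor of matrix metalloproteinases, was 413 ± 64.2 in LacZ cells and 6859 ± 64.7 in the RBMS3 line (log2 difference 4.06, limma adjusted p = 3.68e-17). DUSP1, a phosphatase that turns off MAP kinases, was 28.8 ± 13.7 against 257 ± 36.4 (log2 difference 3.20, limma adjusted p = 0.00533). These genes answer to many other factors, and the list does not measure AP-1 activity.

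The fourth list holds 10 proteins that bind AU-rich or related elements, of which 9 were tested. In LacZ cells 1 rose and 4 fell over 360 min, where 14.9% of all tested genes rose and 13.6% fell. In RBMS3 cells 1 rose and 4 fell, beside 19.1% and 18.6% of all genes. ZFP36L1, which promotes the decay of AU-rich mRNAs, fell over 90 min, with a log2 change of −1.68 in LacZ cells and −1.496 in the RBMS3 line (limma adjusted p = 6.01e-06 and 9.43e-06). Its relative ZFP36L2 was 1320, 277 and 1246 in LacZ cells and 1588, 1348 and 1442 in the RBMS3 line at 0 min, replicate 2 of the LacZ cells again being the low one. The change of ZFP36L2 over 90 min differed between the lines by −1.80 (limma adjusted p = 0.0408). Without LacZ replicate 2 at 0 min it was −1.06 (limma adjusted p = 0.00257). The call was lost without any 1 of the 6 RBMS3 libraries of 0 and 90 min (limma adjusted p from 0.0547 to 0.0868) and without LacZ replicate 1 or 2 at 90 min (limma adjusted p = 0.103 and 0.0719). ZFP36 itself did not pass the filter and was at or below 2.94 in every library after 0 min.

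**Figure D5:**
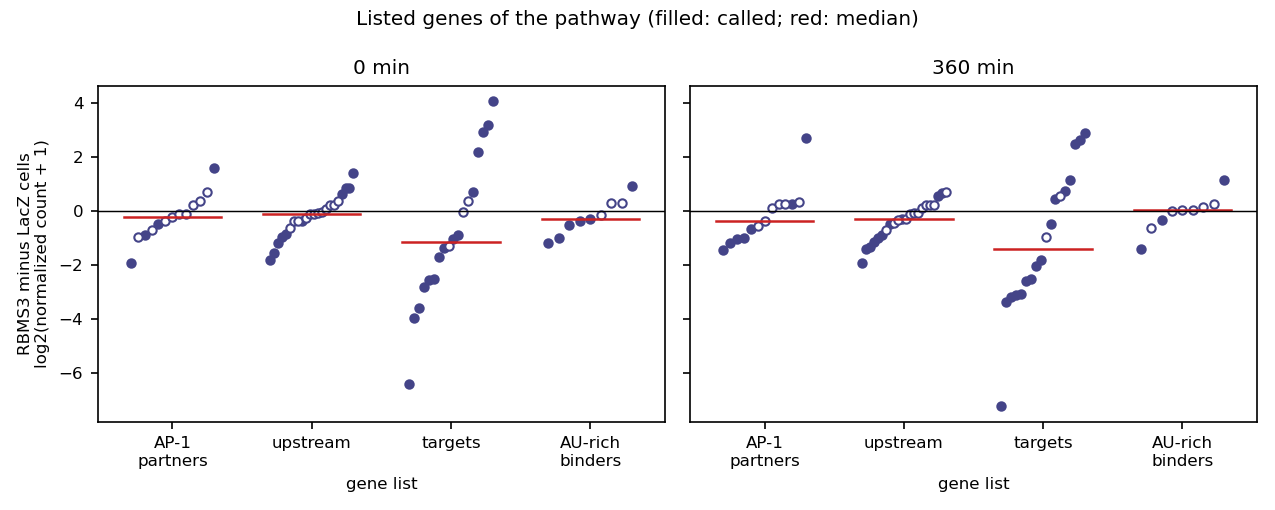
Difference between the lines, RBMS3 minus LacZ cells in log2(normalized count + 1), at 0 min (left) and 360 min (right) for the tested genes of 4 lists, each point a gene, filled where called, with the list median in red. The AP-1 targets spread widest, with MMP9 at −6.40 and TIMP1 at 4.06 at 0 min, and their median lies at −1.16.

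For each member the 3 genes with the most similar pattern were found among 9102 tested genes with a mean of at least 50, by the root mean square difference of the 8 centred group means. JUNB was closest to NFKBIA (0.41), EGR1 (0.46) and MYC (0.50), 3 genes that are also switched on quickly by signals. NFKBIA, the inhibitor of NF-kappaB, was 1141 ± 286 in LacZ cells and 1286 ± 76.3 in the RBMS3 line at 0 min, and 75.5 ± 16.6 and 37.5 ± 2.68 at 90 min. JUN was closest to 3 histone genes, H2BC4 (0.46), H1-2 (0.47) and H2AC20 (0.50). FOSL2 was closest to ERRFI1 (0.14), a feedback inhibitor of EGFR, then TSC22D2 (0.16) and RUNDC1 (0.19). FOSL1 was closest to HSPA1A (0.14), TBP (0.14) and MUL1 (0.16), and JUND to TNKS1BP1 (0.10), MASTL (0.12) and PTCD1 (0.15). The nearest genes to ATF3 were KIAA1522 (0.38), USP53 (0.40) and MYO6 (0.42).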

How the data were processed

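The series-wide table deposited by the authors holds normalized counts, a signal per gene, for 38849 genes in 24 libraries of polyadenylated RNA read at the 3' end. The tools, per the submitters' processing notes, were Salmon 1.4.0, Trim Galore 0.6.6 and DESeq2 1.32.0. The build and the annotation behind these values were not given in the sources used here. Also deposited by the authors were estimated counts per transcript. For 12 samples the attached file carried another sample's name and was not used here. In the other 12, 88.4% of transcripts and 95.2% to 95.7% of reads matched GENCODE release 29. The estimated counts were summed by gene, rounded to whole numbers, and used for depth, the ratio of table value to reads, and the tests with edgeR 4.0.16 and DESeq2 1.42.0. Floors of 3 reads cover counting error only.

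Tests were made in R 4.3.3 with limma 3.58.1, with a trend and without robust estimation, on log2(normalized count + 1), which understates changes of low genes, with 8 group means in 1 fit, 13 comparisons and Benjamini-Hochberg adjustment over 12096 genes with a mean of at least 10. Alternatives were a pseudocount of 0.5 or 10, no filter, a mean of at least 50, scaling to ribosomal protein genes, a replicate block, only the groups compared in the fit, and each library left out. The script was tested on simulated data. The members and lists were chosen with earlier results of these data known. Named genes are the 7 members, RBMS3, the 3 nearest genes to each member, and genes from up to 4 per list and comparison with the largest called difference, where the higher group averaged 50 or more and, except for line differences, replicates did not overlap. EPCAM, CDH1, VIM, ZEB1, KRT5, KRT8, KRT14, KRT17, KRT18, KRT19, FN1, TWIST1, CDH2, FOSB, ZFP36, CD3E, CD68, CDH5 and PLIN1 are named as markers or list genes outside that rule. Motifs were searched in 3' UTRs of the same annotation on GRCh38.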

Additional observations from a re-analysis of the deposited data

Results flagged for a closer look

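The loss of JUNB over the first 90 min of actinomycin D differed between the lines by −2.60 on the log2 scale, by a test of the difference itself. The loss, as a share of a library, was larger in RBMS3 cells. Without LacZ replicate 2 at 0 min, which held lower JUNB, the difference was −2.11. The RBMS3 libraries of 0 min, on which it rests, also held more KRT14, KRT17 and FN1 than the RBMS3 libraries of 90 min, and the part of this was not tested.

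The loss of JUND over 360 min differed between the lines by −1.09 on the log2 scale, by the same kind of test, and was again larger in RBMS3 cells. It rests on the same RBMS3 libraries of 0 min. The part after 90 min, which does not use them, was −0.85 and did not pass (limma adjusted p = 0.27). The difference between the lines at 360 min, which does not use them either, was −0.92 (limma adjusted p = 3.21e-05).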

How the results depend on the processing

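Of 1121 values of the members under other settings, 1075 kept their direction and their side of the threshold.

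Scaling to ribosomal protein genes turned 4 uncalled differences: JUND between the lines at 0 min to −0.096, FOSL2 between the lines at 360 min to −0.095, and ATF3 from 90 to 360 min to −0.25 in LacZ cells and −0.016 in RBMS3 cells. Leaving out 1 library at a time turned 10 values, all of uncalled differences. The ranges were −0.21 to 0.0074 for FOSL1 in LacZ cells at 90 min, and between the lines −0.54 to 0.013 for FOSL2 at 180 min, −0.075 to 0.14 for FOSL2 at 360 min (also −0.055), −1.07 to 0.0025 for JUNB at 180 min and −0.12 to 0.015 for JUND at 90 min. From 90 to 360 min they were −0.37 to 0.54 for ATF3 in LacZ cells (also −0.26), and for the line differences −0.16 to 0.75 for ATF3 and −0.34 to 0.20 for JUN. The cause was not tested. Leaving out libraries for the listed pathway genes that are named was added after seeing the data.

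The members called became 2 for the line difference at 360 min with a pseudocount of 10, 1 between the lines at 0 min with a mean of at least 50, where ATF3 was not tested, and 1 for LacZ cells at 90 min with only the groups compared. Genes called over all were 1773 for LacZ cells and 2930 for RBMS3 cells from 90 to 360 min with ribosomal protein scaling, 1099 for the line difference at 90 min with that scaling, and 2990 with edgeR for RBMS3 cells from 90 to 360 min. With only the groups compared they were 87 and 1419 for LacZ cells at 90 and 360 min, and 295 and 455 for the line differences at 90 and 360 min. Leaving out a library gave 392 to 1159 for LacZ cells at 90 min, 670 to 763 for LacZ cells from 90 to 360 min, and 0 to 4 for the line difference from 90 to 360 min, which was 2 without a filter, 5 with ribosomal protein scaling and 0 with only the groups compared.

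Same-numbered libraries of different groups correlated from −0.111 to 0.116 in their deviations from the group means, and 12 of 24 libraries correlated best with their own number, so the numbers are not treated as pairs. With a replicate block the line difference from 90 to 360 min had 0 calls, and no other count of calls moved by over 1.5 times. Depth limits FOS after 0 min, ATF3 in RBMS3 cells, and JUNB in RBMS3 cells at 180 and 360 min. JUNB there rested on 7, 10 and 30 estimated reads at 180 min and 16, 7 and 11 at 360 min.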
